A study of Mus musculus with 16 samples.

Results

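Transcripts of 38 genes of the tricarboxylic acid (TCA) cycle, of pyruvate entry into it and of its replenishment were followed in mouse brain, out of 39179 gene identifiers counted. The genes were taken from a list of named enzymes, carriers and regulators, and each was matched to its Ensembl identifier by its symbol in the GENCODE M21 annotation of GRCm38. RNA was sequenced from 16 mice in 4 groups of 4. Wild-type (WT) mice, with the MRPS5 WT genotype, were examined at 3 and at 19 months of age, and mice of the MRPS5 V338Y genotype were examined at the same ages. MRPS5 belongs to the small mitoribosomal subunit, and the study describes the V338Y mice as homozygous knock-in animals whose mitochondrial ribosomes misread the code more often. The study took frozen cortex of female mice, while the labels name brain as the tissue and, in the extraction protocol, muscle samples. No mouse was sampled at both ages, and the labels name no litter, batch or day. The titles of all 19-month samples end in the letter N, and those of the 3-month samples do not. What the letter stands for is not given. A missense change leaves no mark in a gene count, so the genotypes could not be checked from these data.

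The TCA cycle oxidises acetyl-CoA in the mitochondrial matrix and passes the electrons to the respiratory chain. Pyruvate is brought in by the mitochondrial pyruvate carrier and is either oxidised to acetyl-CoA by the pyruvate dehydrogenase complex, which kinases switch off and phosphatases switch on, or carboxylated to oxaloacetate by pyruvate carboxylase. In brain the cycle is tied to the amino acid transmitters, because glutamate and aspartate are made from its intermediates, and neurons and astrocytes use its enzymes differently, with pyruvate carboxylase held mainly by astrocytes.

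Total counts were between 6181448 and 19601664 per mouse, and each of the 38 genes had between 79 and 14910 counts in every mouse, so that all 38 passed the filter on low counts in every comparison. At 19 months the median total was 11047919.5 in WT (6181448 to 12658661) and 15995066.5 in V338Y (10029898 to 19573427). At 3 months the medians were 11157809 in WT and 15789042.5 in V338Y. Several features of the libraries moved with age or genotype. Alternatives were fits with the cerebellum markers as a covariate, with libraries thinned to the smallest total, or without the mice highest in muscle or choroid plexus markers. The part of the other features was not tested. Counts of 4 Y-linked genes (Ddx3y, Eif2s3y, Kdm5d and Uty) were present in all 3-month libraries and at 0 in all 19-month libraries, so sex and age cannot be told apart in these files, although the study describes female mice. The summed level of 9 cerebellum markers was 718 to 1240 CPM (counts scaled to the effective size of each library) in WT and 105 to 2072 CPM in V338Y at 3 months, but 95.4 to 115 CPM in WT and 98.5 to 112 CPM in V338Y at 19 months; at 3 months only the V338Y mouse 14, at 105 CPM, was within the 19-month range. Neuron, astrocyte, oligodendrocyte, microglia and endothelial markers were present in all groups, with none of any list at 0 throughout a group. The 9 neuron markers had a mean log2 fold change with age of -0.34 in WT and -0.26 in V338Y, the 8 astrocyte markers of 0.92 and 0.84 and the 7 endothelial markers of 2.30 and 2.18. At 19 months 6 muscle markers summed to 15.4 to 140 CPM in V338Y and 6.05 to 7.41 CPM in WT, and 7 choroid plexus markers to 160 to 2265 CPM and 225 to 995 CPM. No marker of either list passed an adjusted p of 0.05 between the genotypes (edgeR), where 3.12% of all genes passed. Of other lists, 3 of 7 meninges, 2 of 7 microglia and 1 of 8 astrocyte markers passed as lower in V338Y. Higher were 1 meninges, 1 of 9 neuron and 1 of 7 oligodendrocyte markers. Mean log2 fold changes were -0.26 for meninges, -0.09 for microglia, -0.08 for astrocytes, -0.47 for blood, 0.06 for neurons and 0.03 for oligodendrocytes. In whole tissue, fewer cells of a type and less RNA per cell cannot be told apart.

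The start regions of the genes were read from RefSeq (GRCm38.p6), which held 33 of the 38 genes; no entry was matched for Idh3a, Sdhc, Pdp1, Gls2 and Me2. The 250 bases before the start site are shown for Dlat and Pdhx, paired core proteins of the pyruvate dehydrogenase complex that were lower with age, and for Suclg2, Pcx and Ogdhl, which were higher with age. These stretches lie outside the annotated gene bodies, and for Pcx the first of its 2 entries is shown. Capitals mark the GC box GGGCGG on either strand, a sequence that the factor SP1 binds.
Dlat, chr9:50659781-50660030, minus strand: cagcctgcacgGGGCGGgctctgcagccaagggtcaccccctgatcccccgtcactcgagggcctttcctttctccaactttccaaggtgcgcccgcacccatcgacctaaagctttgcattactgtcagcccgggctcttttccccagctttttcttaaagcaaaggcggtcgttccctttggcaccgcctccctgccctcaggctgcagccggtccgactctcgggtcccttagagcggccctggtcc
Pdhx, chr2:103073514-103073763, minus strand: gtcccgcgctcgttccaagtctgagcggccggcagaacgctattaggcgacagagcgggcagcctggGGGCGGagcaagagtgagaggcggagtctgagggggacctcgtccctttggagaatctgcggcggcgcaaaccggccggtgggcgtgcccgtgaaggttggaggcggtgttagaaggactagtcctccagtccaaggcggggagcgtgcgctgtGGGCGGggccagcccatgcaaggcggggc
Suclg2, chr6:95718847-95719096, minus strand: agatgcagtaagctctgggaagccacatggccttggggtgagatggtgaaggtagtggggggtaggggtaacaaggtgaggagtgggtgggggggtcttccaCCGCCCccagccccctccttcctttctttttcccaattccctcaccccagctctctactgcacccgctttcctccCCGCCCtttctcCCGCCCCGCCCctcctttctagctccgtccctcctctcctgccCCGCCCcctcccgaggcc
Pcx, chr19:4510222-4510471, plus strand: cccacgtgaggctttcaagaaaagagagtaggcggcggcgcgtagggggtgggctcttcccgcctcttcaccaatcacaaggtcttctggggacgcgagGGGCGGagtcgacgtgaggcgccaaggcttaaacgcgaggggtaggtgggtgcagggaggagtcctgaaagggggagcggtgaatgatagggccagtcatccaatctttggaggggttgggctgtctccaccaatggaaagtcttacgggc
Ogdhl, chr14:32321769-32322018, plus strand: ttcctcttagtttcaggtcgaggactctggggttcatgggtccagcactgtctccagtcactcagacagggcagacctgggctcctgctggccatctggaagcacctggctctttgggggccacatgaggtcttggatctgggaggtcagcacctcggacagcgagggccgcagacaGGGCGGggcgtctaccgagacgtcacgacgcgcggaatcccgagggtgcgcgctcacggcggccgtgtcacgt
The GC box was found in the stretch from 250 bases before to 50 after the start site in 23 of the 33 genes (69.7%) and in 38.2% of 27025 genes in all. Among the 33, it was found in 15 of the 23 genes that were lower with age in both genotypes and in 8 of the other 10. The ETS motif CCGGAAG, searched on both strands, was found in 7 of 33 against 9.93% of all genes, and 6 of those 7 were lower with age. Of the other motifs searched on both strands, the palindromic NRF1 motif of 10 bases was found in 0 of 33 against 1.07% of all genes, AAGATGGCG (YY1) in 1 against 1.64%, TCAAGGTCA (oestrogen-related receptors) in 1 against 0.466%, and TGACGTCA (CREB) in 2 against 2.03%. These are matches of letters and not binding sites.

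Levels per length of exon differed widely between the genes. Mdh1, the cytosolic malate dehydrogenase of the malate-aspartate shuttle, had the highest level, at 299 ± 4.13 CPM per kb of exon in WT at 3 months (mean ± SD, n = 4) and 173 ± 10.6 at 19 months. Got1, its partner aspartate aminotransferase in the cytosol, followed at 131 ± 2.17 and 87.7 ± 2.39 CPM per kb, and Sdha, the flavoprotein of succinate dehydrogenase, at 102 ± 1.21 and 85.3 ± 3.80 CPM per kb. At the other end stood Pdp2, the second pyruvate dehydrogenase phosphatase, at 2.18 ± 0.0641 and 2.27 ± 0.1496 CPM per kb, and Suclg2, the GTP-forming subunit of succinate-CoA ligase, at 2.70 ± 0.215 and 4.19 ± 0.307 CPM per kb. The order of the genes within a pair depended on the length used in 3 of 22 pairs compared (Idh3g and Idh3a, Pdk3 and Pdk2, Me1 and Me3).

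**Figure D1:**
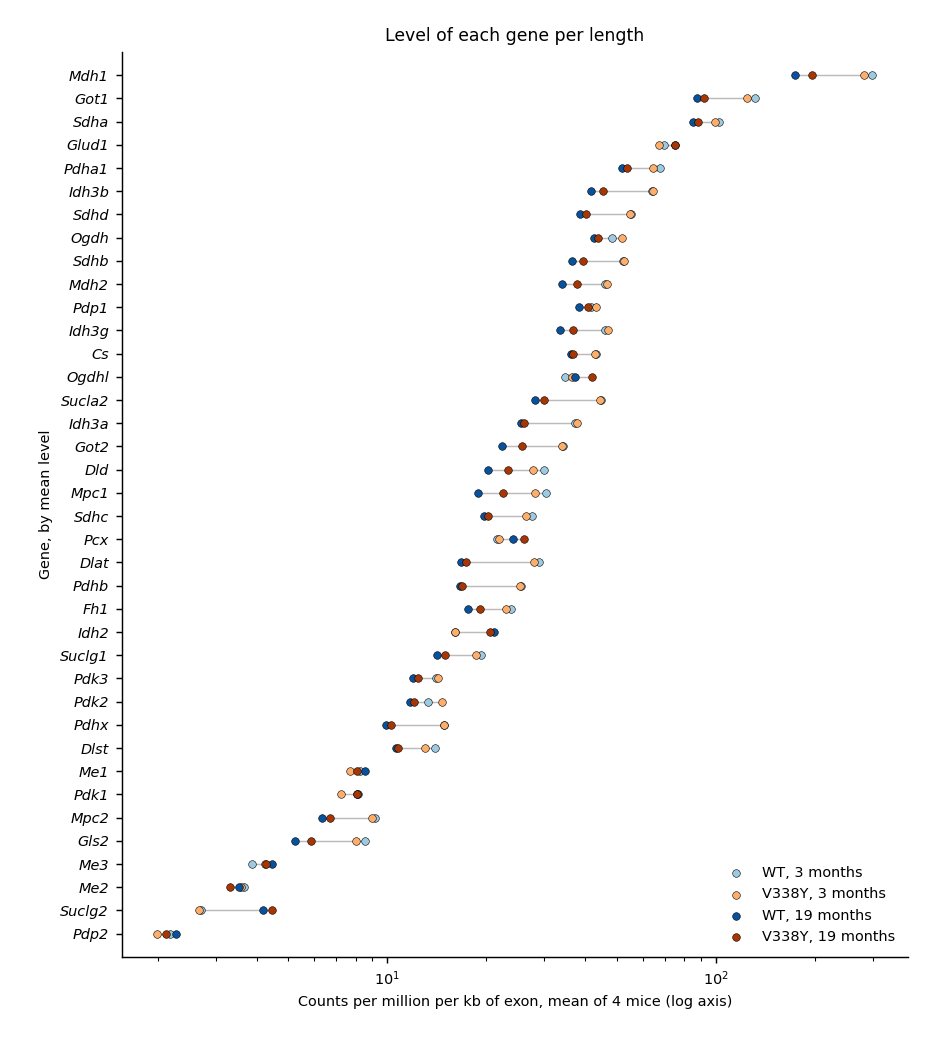
Mean level of each of the 38 genes in the 4 groups, in CPM per kb of exon on a log axis, with grey lines joining the lowest and the highest group mean. Mdh1 stands apart at 173 to 299. Most genes have both 19-month points to the left of both 3-month points. Suclg2, Idh2, Pcx, Ogdhl, Glud1 and Me3 have them to the right.

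The comparison of 19 with 3 months asked which of these transcripts differed with age in each genotype. In WT mice 32 of 38 genes were called at an adjusted p under 0.05 (edgeR's quasi-likelihood test on the counts, with Benjamini-Hochberg adjustment over all genes tested), 26 lower and 6 higher at 19 months, where 62.8% of all 16101 genes tested were called, 31.5% lower and 31.4% higher. At an adjusted p under 1e-05, 22 genes were lower and 2 higher, against 26.8% of all genes, 12.3% lower and 14.5% higher. The log2 fold change was above 0 for 9 of 38 genes and for 49.5% of all genes, with medians of -0.40 and -0.00496. In V338Y mice 33 of 38 were called, 27 lower and 6 higher, against 48.8% of all 16770 genes, 25.7% lower and 23.1% higher. At 1e-05 the numbers were 4 lower and 1 higher, against 4.9% of all genes, 0.739% lower and 4.16% higher. Here too 9 genes had a fold change above 0, against 47.2% of all genes, with medians of -0.27 and -0.03.

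The 4 mice of one age did not overlap the 4 of the other for 30 of 38 genes in WT, 26 lower and 4 higher, against 56% of all genes, 30.5% lower and 25.5% higher. In V338Y the numbers were 26 and 4 as well, against 44.7% of all genes, 23.6% lower and 21.1% higher. When libraries were scaled by their totals alone, 28 genes were lower and 3 higher in WT, and of all genes 6321 were lower and 4175 higher, against 5065 and 5050 with the scaling used elsewhere (TMM, a trimmed mean of ratios between libraries).

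**Figure D2:**
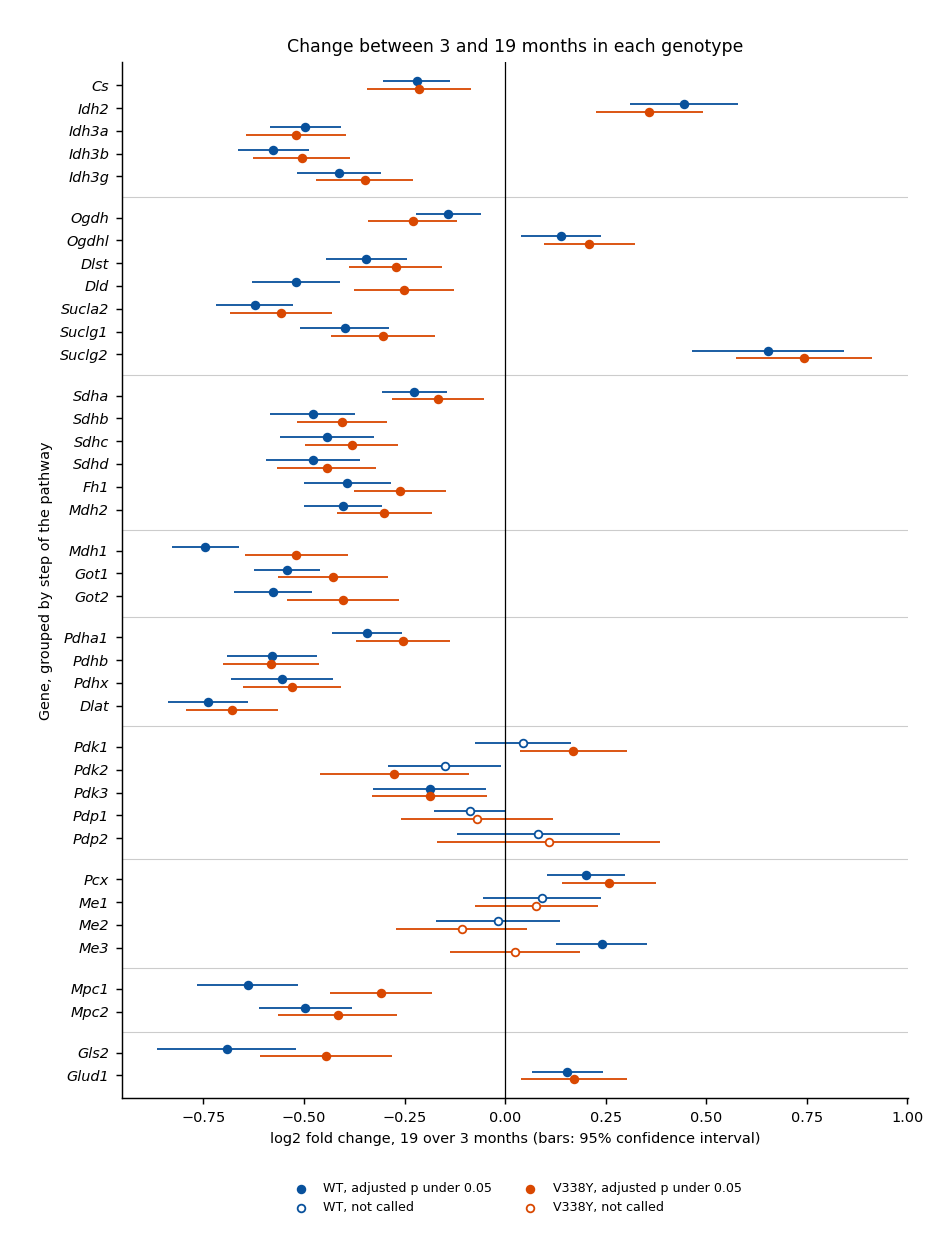
Log2 fold change of each gene between 3 and 19 months in WT (blue) and V338Y (orange), with 95% confidence intervals, in blocks from top to bottom for citrate to oxoglutarate, oxoglutarate to succinate, succinate to oxaloacetate, the malate-aspartate shuttle, the pyruvate dehydrogenase complex, its kinases and phosphatases, pyruvate carboxylase and malic enzymes, the pyruvate carrier and glutamate entry. Filled points passed an adjusted p of 0.05. Most blocks lie to the left of 0, and Suclg2, Idh2, Pcx, Ogdhl and Glud1 lie to the right in both genotypes.

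Of the steps from citrate to oxoglutarate, citrate synthase and the NAD-dependent isocitrate dehydrogenase were lower with age, and the NADP-dependent enzyme of the matrix was higher. Citrate synthase (Cs), which joins acetyl-CoA to oxaloacetate, differed by a log2 fold change of -0.22 ± 0.04 (SE) in WT and -0.21 ± 0.06 in V338Y (adjusted p = 2.63e-05 and 0.00998). Of the NAD-dependent enzyme, the catalytic subunit Idh3a was at 186, 186, 191 and 190 CPM in WT at 3 months and at 136, 131, 130 and 121 CPM at 19 months, and in V338Y at 196, 201, 182 and 185 CPM and at 122, 130, 142 and 135 CPM. The ages stood apart in both genotypes, by -0.50 in WT and -0.52 in V338Y. The other subunits differed by -0.58 and -0.51 for Idh3b and by -0.41 and -0.35 for Idh3g. Idh3b overlaps Nop56 on the other strand, which had 36.8% as many counts, and as the strand setting of the counting is not given in the sources used here, reads of such pairs cannot be told apart. Idh2, which makes NADPH, was at 40.8, 44.7, 41.9 and 38.6 CPM in the 4 WT mice at 3 months and at 61.5, 55.7, 53.0 and 48.6 CPM at 19 months. In V338Y it was at 39.3, 43.7, 39.3 and 43.5 CPM and at 55.2, 51.9, 53.9 and 50.8 CPM. Every old mouse was above every young mouse in both genotypes. The log2 fold changes were 0.44 ± 0.07 in WT (adjusted p = 7.19e-07) and 0.36 ± 0.06 in V338Y (adjusted p = 0.000424).

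Between oxoglutarate and succinate, 5 of 7 genes were lower and 2 were higher with age in each genotype. Of all genes, 31.5% were called lower and 31.4% higher in WT, and 25.7% and 23.1% in V338Y. Oxoglutarate dehydrogenase (Ogdh) differed by -0.14 and -0.23, its succinyltransferase Dlst by -0.34 and -0.27, and dihydrolipoamide dehydrogenase (Dld), shared with the pyruvate dehydrogenase complex, by -0.52 and -0.25. Ogdhl, an oxoglutarate dehydrogenase found mainly in brain, was higher by 0.14 ± 0.05 and 0.21 ± 0.05 (adjusted p = 0.0134 and 0.00554), with overlapping mice in WT and none overlapping in V338Y. Its young WT mice were at 143, 146, 155 and 133 CPM and its young V338Y mice at 157, 153, 148 and 148 CPM.

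Succinate-CoA ligase pairs the common subunit Suclg1 with either the ATP-forming Sucla2 or the GTP-forming Suclg2, and these moved in opposite directions. Sucla2 was at 176, 186, 177 and 172 CPM in WT at 3 months and at 119, 112, 114 and 103 CPM at 19 months. V338Y mice had 193, 175, 166 and 175 CPM at 3 months and 112, 119, 125 and 123 CPM at 19 months. All old mice lay below all young mice, by -0.62 ± 0.05 in WT (adjusted p = 6.44e-13) and -0.56 ± 0.06 in V338Y (adjusted p = 7.86e-06). Suclg2 was at 11.6, 12.9, 13.7 and 11.8 CPM in WT at 3 months and at 19.9, 18.6, 17.9 and 21.1 CPM at 19 months. V338Y levels were 12.4, 12.8, 11.5 and 12.6 CPM at 3 months and 21.0, 20.3, 22.0 and 19.0 CPM at 19 months. This was the largest rise of the 38 genes, with every old mouse above every young mouse, by 0.65 ± 0.09 in WT (adjusted p = 3.47e-07) and 0.74 ± 0.08 in V338Y (adjusted p = 8.14e-06). Suclg1 differed by -0.40 and -0.30.

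All 6 genes from succinate to oxaloacetate were lower with age in both genotypes, without overlap. Of all genes, 30.5% in WT and 23.6% in V338Y were lower without overlap. Of the subunits of succinate dehydrogenase, which is also complex II of the respiratory chain, Sdha differed least, by -0.23 in WT and -0.17 in V338Y, and the iron-sulfur subunit Sdhb by -0.48 and -0.41. The membrane anchors Sdhc and Sdhd differed by -0.44 and -0.38 and by -0.48 and -0.44. Fumarate hydratase (Fh1) differed by -0.39 and -0.26, and the mitochondrial malate dehydrogenase Mdh2 by -0.40 and -0.30.

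The cytosolic arm of the malate-aspartate shuttle, which carries reducing equivalents from NADH into mitochondria, had the largest fall in WT. Mdh1 was at 776, 774, 767 and 752 CPM in WT at 3 months and at 470, 450, 454 and 406 CPM at 19 months. V338Y mice had 760, 756, 665 and 725 CPM at 3 months and 487, 477, 535 and 519 CPM at 19 months. The ages did not overlap, and the differences were -0.75 ± 0.04 in WT (adjusted p = 4.03e-16) and -0.52 ± 0.06 in V338Y (adjusted p = 1.74e-05). The aminotransferases Got1, in the cytosol, and Got2, in the matrix, differed by -0.54 and -0.43 and by -0.58 and -0.40. Got1 was at 332, 331, 341 and 328 CPM in young and 217, 219, 231 and 224 CPM in old WT mice, and at 329, 344, 284 and 309 CPM and 224, 227, 247 and 239 CPM in V338Y. For Got2 the young mice were at 168, 173, 167 and 153 CPM in WT and at 175, 178, 153 and 152 CPM in V338Y, above all old mice.

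All 4 genes of the pyruvate dehydrogenase core that were followed were lower with age, from -0.34 for Pdha1 to -0.74 for Dlat in WT. Of all genes, 31.5% were called lower in WT and 25.7% in V338Y. Pdha1, the E1 alpha subunit on which the kinases act, was at 253, 254, 249.6 and 252 CPM in WT at 3 months and at 207, 185, 189 and 194 CPM at 19 months, and in V338Y at 237, 254, 227 and 242 CPM and at 194, 194, 212 and 200.04 CPM. No old mouse reached the young ones, and the differences were -0.34 in WT and -0.25 in V338Y. Pdhb, the E1 beta subunit, was at 95.4, 102, 99.3 and 97.7 CPM in WT at 3 months and at 70.4, 62.3, 66.7 and 56.6 CPM at 19 months. V338Y levels were 101, 96.2, 93.6 and 101 CPM at 3 months and 63.1, 62.0, 70.1 and 65.2 CPM at 19 months. The ages did not overlap, and both differences were -0.58 on the log2 scale (SE 0.05 and 0.06, adjusted p = 1.38e-10 and 3.55e-06). Dlat, the E2 acetyltransferase, was at 136, 146, 144 and 138 CPM and at 89.0, 83.1, 79.1 and 77.2 CPM in WT. In V338Y it was at 139, 137, 135 and 135 CPM and at 78.5, 86.1, 89.8 and 85.0 CPM. The old mice were again all below the young ones, by -0.74 ± 0.05 in WT (adjusted p = 3.8e-14) and -0.68 ± 0.05 in V338Y (adjusted p = 6.24e-07), the largest fall in V338Y. Pdhx, the E3-binding protein, differed by -0.55 and -0.53.

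Of the kinases and phosphatases of the complex, 1 of 5 genes was called in WT and 3 in V338Y, against 62.8% and 48.8% of all genes. The kinase Pdk3 was lower in both genotypes, at -0.19 each (adjusted p = 0.0189 and 0.0322). Pdk2 differed by -0.15 in WT (adjusted p = 0.0583) and -0.28 in V338Y (adjusted p = 0.0177), and Pdk1 differed by 0.04 in WT (adjusted p = 0.527) and was higher by 0.17 in V338Y (adjusted p = 0.0367). The difference between the genotypes in the age effect did not pass for Pdk1 or Pdk2 (adjusted p = 0.587 and 0.765). The phosphatases Pdp1 and Pdp2 had values of -0.09 and 0.08 in WT and -0.07 and 0.11 in V338Y, none of them called.

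Both subunits of the pyruvate carrier were lower with age, Mpc1 by -0.64 and -0.31 and Mpc2 by -0.50 and -0.42. Young mice had Mpc1 at 63.8, 62.8, 67.7 and 58.2 CPM in WT and at 60.9, 55.4, 56.0 and 61.4 CPM in V338Y. Of the enzymes that refill the cycle, pyruvate carboxylase (Pcx) was at 107, 104, 103 and 96.3 CPM in WT at 3 months and at 114, 114, 117 and 113 CPM at 19 months. V338Y mice had 106, 99.8, 105 and 104 CPM at 3 months and 126, 128, 121 and 119 CPM at 19 months. All old mice were above all young ones, by 0.20 ± 0.05 in WT (adjusted p = 0.000538) and 0.26 ± 0.05 in V338Y (adjusted p = 0.00162). Pcx shares its locus with Lrfn4 on the other strand, which had 32.8% as many counts. Me3, a mitochondrial NADP-dependent malic enzyme, was at 58.0, 55.1, 58.1 and 54.9 CPM in WT at 3 months and at 62.8, 63.9, 65.0 and 69.1 CPM at 19 months. In V338Y it was at 53.4, 61.2, 64.1 and 68.7 CPM and at 60.8, 65.7, 61.0 and 62.7 CPM. The WT ages did not overlap (0.24 ± 0.06, adjusted p = 0.000399), the V338Y mice overlapped (0.02 ± 0.07, adjusted p = 0.81), and the test of the difference did not pass (-0.20 ± 0.09, adjusted p = 0.463). Neither the cytosolic malic enzyme Me1 nor the mitochondrial NAD-dependent Me2 was called, at 0.09 and -0.02 in WT and 0.08 and -0.11 in V338Y.

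Glutamate enters the cycle through glutaminase and glutamate dehydrogenase, and the 2 genes followed here moved apart. Gls2, a glutaminase that releases glutamate from glutamine, was at 26.5, 29.4, 33.6 and 29.7 CPM in WT at 3 months and at 18.5, 17.5, 16.3 and 20.6 CPM at 19 months. In V338Y it was at 28.4, 27.3, 31.0 and 25.1 CPM and at 20.3, 20.2, 21.2 and 19.8 CPM. All old mice were below all young mice, by -0.69 ± 0.08 in WT (adjusted p = 2.19e-08) and -0.45 ± 0.08 in V338Y (adjusted p = 0.000399). Spryd4, on the other strand of the Gls2 locus, had 31.7% as many counts. Glud1, glutamate dehydrogenase, was at 301, 280, 295 and 290 CPM in WT at 3 months and at 343, 300.2, 319 and 301 CPM at 19 months, and in V338Y at 286, 290, 255 and 299 CPM and at 298, 307, 327 and 335 CPM. It was higher by 0.15 ± 0.04 in WT and 0.17 ± 0.06 in V338Y (adjusted p = 0.00266 and 0.0332), with one young mouse inside the range of the old mice in each genotype.

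The V338Y mouse 14, the one 3-month library with cerebellum markers at the 19-month level, was set beside the other young V338Y mice as a description only, since it was among the young mice from which the genes were called. Over the 27 genes lower with age in V338Y, the median log2 of the old mean over mouse 14 was -0.40, against -0.37 over the other 3 young V338Y mice. Over the 6 higher genes the medians were 0.23 and 0.22. Without mouse 14, 26 genes were lower and 6 higher with age in V338Y. With the cerebellum markers as a covariate, 22 of 38 genes were called in V338Y, 19 lower and 3 higher, and 20 of these were among the 33 called without it. In WT the markers separate the ages completely, and 0 of 38 genes were called with that covariate.

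**Figure D3:**
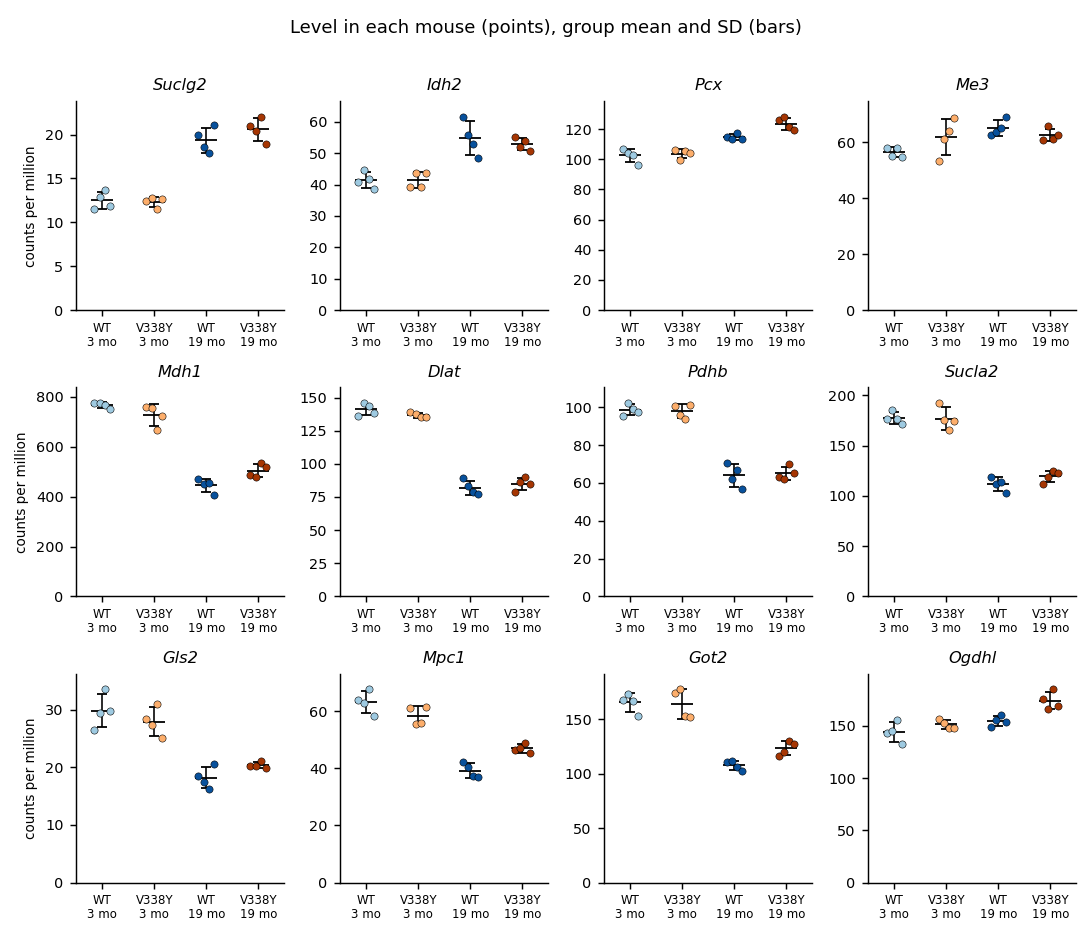
Level of 12 genes in each mouse, in CPM on an axis that starts at 0, by genotype and age, with the group mean and SD. The top row holds Suclg2, Idh2 and Pcx, called higher at 19 months in both genotypes, and Me3, called higher in WT only. The next rows hold genes that were lower and, last, Ogdhl. For Suclg2 the old mice are at 17.9 to 22.0 and the young ones at 11.5 to 13.7.

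Ratios of 2 genes within one library do not depend on the scaling between libraries, and 22 pairs were compared in this way. Most were isoenzymes or subunits of one complex, while Pcx with Pdha1 and Gls2 with Glud1 paired different enzymes. The pairs were chosen with earlier results of these data known, and no share over pairs of other genes was computed. Of all single genes, edgeR called 62.8% with age in WT and 48.8% in V338Y. Age labels were then permuted within each genotype (two-sided exact permutation test, 4900 assignments, smallest possible p 0.000408). After Benjamini-Hochberg adjustment 15 of 22 ratios passed, 7 higher and 8 lower at 19 months. The largest was Suclg2 over Sucla2, with count ratios of 0.0659 to 0.0776 in WT and 0.0646 to 0.0731 in V338Y at 3 months and of 0.157 to 0.206 and 0.154 to 0.187 at 19 months. Its log2 ratio was higher by 1.30 with age in 8 of 8 old mice (adjusted p = 0.000898). Per kb of exon, the level of Suclg2 was 0.0607 of that of Sucla2 in WT at 3 months and 0.149 at 19 months.

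The ratio of Idh2 to Idh3a, the NADP- against the NAD-dependent isocitrate dehydrogenase, was 0.203 to 0.241 in WT and 0.201 to 0.235 in V338Y at 3 months, and 0.400 to 0.453 and 0.376 to 0.452 at 19 months. It was higher by 0.91 on the log2 scale without overlap. Gls2 over Glud1 was 0.0882 to 0.114 and 0.0839 to 0.122 at 3 months and 0.0512 to 0.0686 and 0.0593 to 0.0682 at 19 months, a difference of -0.72 on the log2 scale. Pcx over Pdha1, the transcript of pyruvate carboxylase against that of a pyruvate dehydrogenase subunit, was 0.382 to 0.423 and 0.393 to 0.465 at 3 months. At 19 months it was 0.553 to 0.623 and 0.570 to 0.660, higher by 0.53 on the log2 scale. The use of pyruvate itself was not measured. In each of these pairs the 8 old mice were all on one side of the 8 young mice, with the same adjusted p of 0.000898 in the exact permutation test.

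Smaller shifts stood within complexes. Relative to Sdha, the subunits Sdhb, Sdhc and Sdhd were lower with age (-0.24, -0.22 and -0.26), and so was Pdhb relative to Pdha1 (-0.29), each with an adjusted p of 0.000898. Ogdhl rose by 0.36 relative to Ogdh and Mdh1 fell by 0.28 relative to Mdh2, with that same adjusted p. Idh3b over Idh3a, Mpc1 over Mpc2 and Got1 over Got2 differed by -0.03, -0.02 and 0.01 and did not pass (adjusted p = 0.423, 0.814 and 0.838, exact permutation test). Within V338Y alone 13 of 22 ratios passed, all at the smallest p that 70 assignments allow, 0.0286 (adjusted p = 0.0484, exact permutation test). Within WT alone 10 ratios were at that same p, and 0 passed (adjusted p = 0.0629). The adjusted value here depends on how many ratios share the smallest p, so the 2 counts do not show a difference between the genotypes. The test of the difference between the age effects passed for 0 of 22 ratios.

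**Figure D4:**
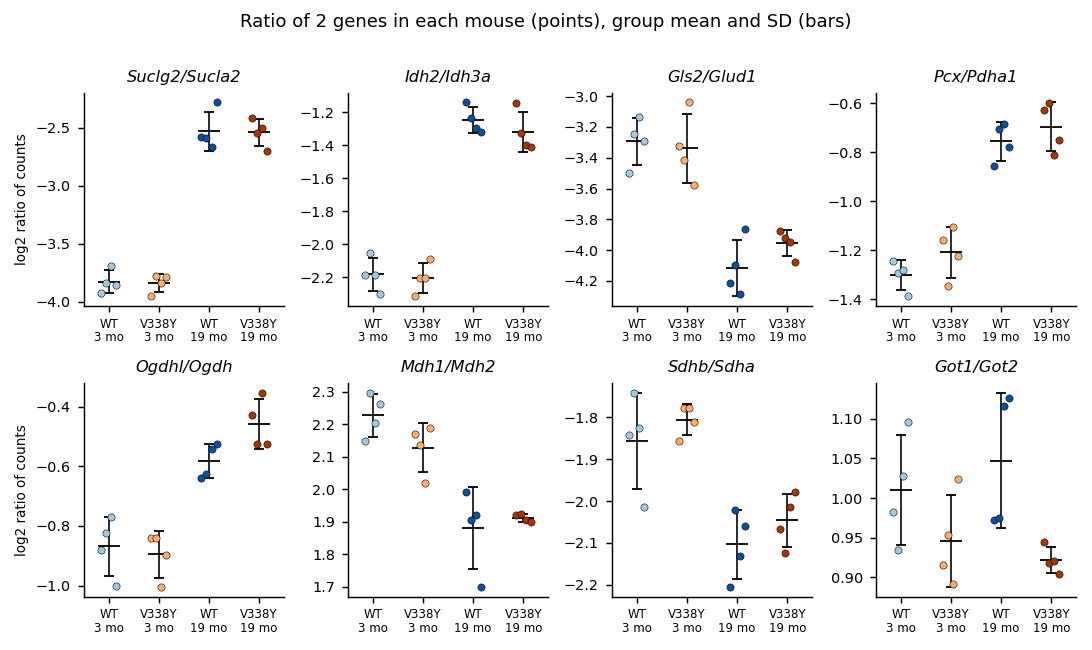
Log2 ratio of the counts of 2 genes in each mouse for 8 pairs, by genotype and age, with the group mean and SD. The 19-month points lie above the 3-month points for Suclg2/Sucla2, Idh2/Idh3a, Pcx/Pdha1 and Ogdhl/Ogdh and below them for Gls2/Glud1 and Mdh1/Mdh2, while Got1/Got2 shows the ages together.

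The comparison of V338Y with WT at 19 months asked how these transcripts differed between the genotypes in old mice. Of 38 genes 4 were called, all higher in V338Y (Mpc1, Got2, Mdh1 and Ogdhl), where 3.12% of 16420 genes were called, 1.19% higher and 1.92% lower. At an unadjusted p under 0.05, 8 genes were higher and 0 lower, against 16.2% of all genes, 7.66% higher and 8.54% lower. The log2 fold change was above 0 for 29 of 38 genes and for 49.7% of all genes, with medians of 0.04 and -0.00072. The old V338Y mice were all above the old WT mice for 8 genes, the 4 called and Idh3b, Mdh2, Pdp1 and Pcx, where 8.92% of all genes were separated, 5.42% upwards and 3.5% downwards. The 4 differences were between 1.11- and 1.17-fold.

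Mpc1 was at 42.1, 40.4, 37.3 and 36.9 CPM in old WT mice and at 46.3, 47.0, 48.9 and 45.4 CPM in old V338Y mice. No V338Y value reached down to the WT range, and the log2 fold change was 0.23 ± 0.06 (adjusted p = 0.0166). Got2 was at 111, 111, 107 and 102 CPM and at 116, 120, 130 and 128 CPM (0.18 ± 0.04, adjusted p = 0.0135). Mdh1, whose values are given above, differed by 0.16 ± 0.04 (adjusted p = 0.0251). Ogdhl was at 148, 155, 161 and 154 CPM and at 176, 167, 185 and 169 CPM (0.15 ± 0.04, adjusted p = 0.036). For each of the 4 genes every old V338Y mouse was above every old WT mouse, and the highest was mouse 19, the library with 140 CPM of muscle markers. Without mouse 19 the log2 fold changes were 0.21, 0.15, 0.13 and 0.13, and none of the 4 passed (adjusted p = 0.0799, 0.0892, 0.13 and 0.191); without the WT mouse 15, the shallowest library, none passed either (adjusted p = 0.0586, 0.0547, 0.128 and 0.0707). Counts from the pseudogene copies Mpc1-ps and Got2-ps1 averaged 10.6 and 1.63, against 698 and 1900 for Mpc1 and Got2.

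The next genes by p, Mdh2 (0.13 ± 0.04) and Dld (0.17 ± 0.05), did not pass (adjusted p = 0.0831 and 0.0853). Several genes near the entry of pyruvate were not called, with 95% intervals of the log2 fold change of -0.08 to 0.09 for Cs, -0.07 to 0.12 for Dlat, -0.12 to 0.11 for Pdhb and -0.08 to 0.10 for Idh3a. For the malic enzymes the values were -0.10 for Me1, -0.11 for Me2 and -0.07 for Me3. Idh3b, at 0.09 ± 0.04 (adjusted p = 0.196), lies 2.67 Mb from Mrps5 on chromosome 2 and was the one gene of the 38 within 20 Mb of it. Of the 22 ratios, 0 passed for genotype within age, and the lowest p was that of Got1 over Got2 (-0.09, p = 0.0102, adjusted p = 0.224, exact permutation test); at 19 months alone Got1 over Got2 differed by -0.13 and Ogdhl over Ogdh by 0.13, both without overlap and both at the smallest p of 0.0286 (adjusted p = 0.314).

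**Figure D5:**
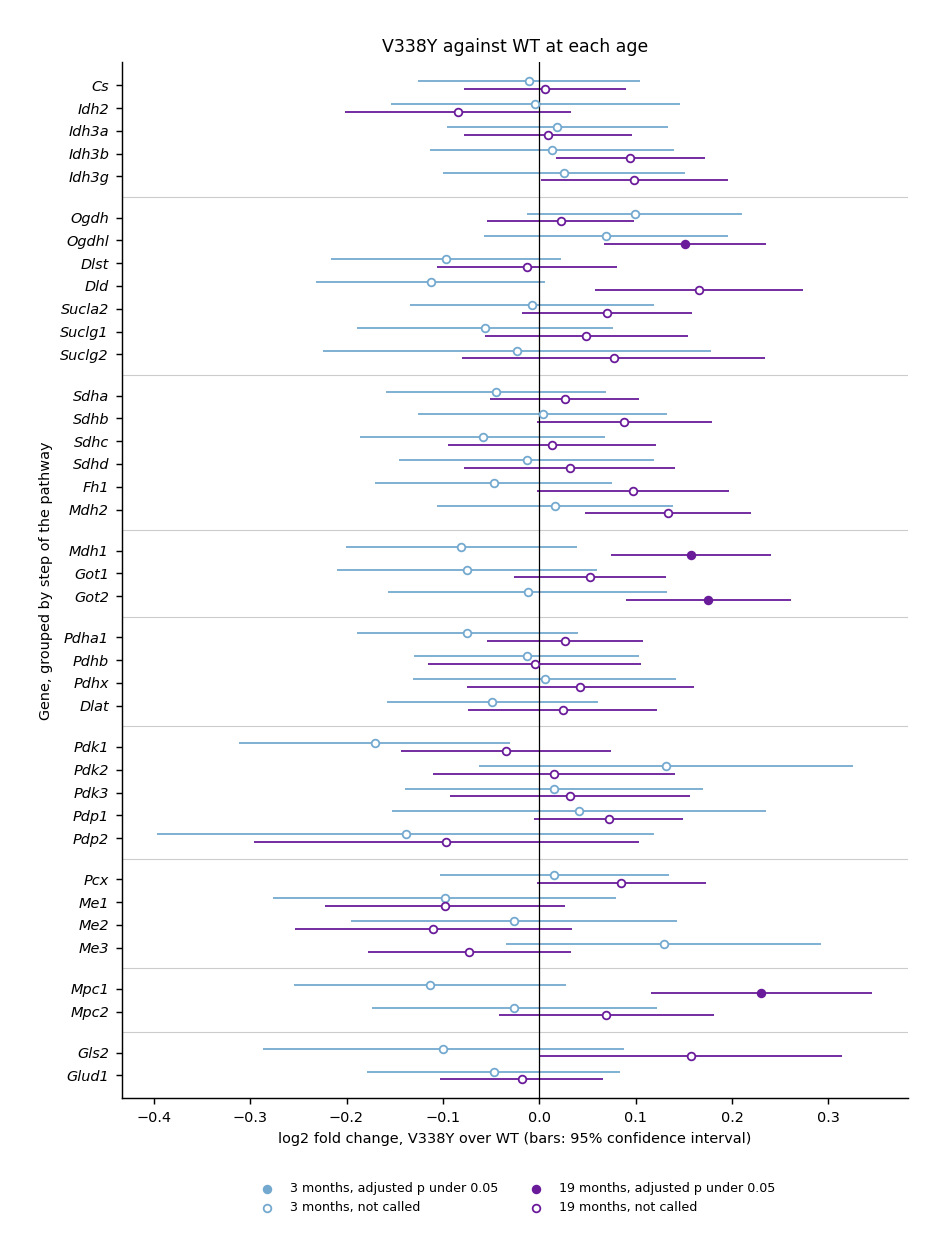
Log2 fold change of each gene between V338Y and WT at 3 months (light blue) and 19 months (purple), with 95% confidence intervals, in the same blocks as the plot of age. Filled points passed an adjusted p of 0.05; they are Ogdhl, Mdh1, Mpc1 and Got2 at 19 months, at 0.15 to 0.23.

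At 3 months 0 of 38 genes were called in V338Y against WT by edgeR, where 0.0616% of 16241 genes were called, and the edgeR likelihood-ratio test and DESeq2 also called 0. At an unadjusted p under 0.05, the gene Pdk1 alone was lower (-0.17 ± 0.07), against 5.02% of all genes, 2.65% of them lower. The fold change was above 0 for 13 of 38 genes and for 51.7% of all genes. The genotypes did not overlap for 1 gene, Ogdh, which was higher in V338Y (0.10 ± 0.05, adjusted p = 0.926), where 3.4% of all genes were separated, 1.57% upwards. Mpc1, Got2, Mdh1 and Ogdhl stood at -0.11, -0.01, -0.08 and 0.07 there, each overlapping between the genotypes. Whether the age effect differed between the genotypes was tested next, and 0 of 38 genes were called by edgeR, against 0.0535% of 16831 genes, while DESeq2 and the likelihood-ratio test also called 0. At an unadjusted p under 0.05, 5 genes had a less negative age effect in V338Y and 1 a lower one, against 10.2% of all genes, 5.33% upwards and 4.91% downwards. These were Mpc1 (0.35 ± 0.09, adjusted p = 0.136), Dld (0.29 ± 0.08, adjusted p = 0.234), Mdh1 (0.25 ± 0.08, adjusted p = 0.254), Gls2 (0.26 ± 0.11, adjusted p = 0.449) and Got2 (0.19 ± 0.08, adjusted p = 0.439), with Me3 at -0.20. The estimate was above 0 for 32 of 38 genes and for 50.6% of all genes, with medians of 0.08 and 0.00205.

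Of 41 further genes around the cycle, 40 were tested, and Pck1 was below the filter. In WT 17 were lower and 7 higher with age, 60% of the 40 against 62.8% of all genes. In V338Y 14 were lower and 8 higher, 55% against 48.8% of all genes, so that both shares were near those of all genes. The largest falls in WT were those of Bdh1, the ketone body enzyme 3-hydroxybutyrate dehydrogenase, and of Slc25a22, a mitochondrial glutamate carrier, by -0.73 and -0.69, and the largest rises those of Pdk4, the fourth pyruvate dehydrogenase kinase, and of Acss1, the mitochondrial acetyl-CoA synthetase, by 1.19 and 0.58. In V338Y these 4 differed by -0.66, -0.61, 0.87 and 0.42, and Dhtkd1, a dehydrogenase of the lysine pathway, by 0.52. At 19 months 2 of the 40 (5%) were called between the genotypes, both higher in V338Y, where 3.12% of all genes were called and 1.19% were higher. Neither call was put to the alternative fits, which covered the 38 genes only. D2hgdh, which returns D-2-hydroxyglutarate to oxoglutarate, was at 6.98, 6.62, 8.41 and 7.74 CPM in WT and 8.86, 10.99, 9.85 and 9.94 CPM in V338Y (0.42 ± 0.11, adjusted p = 0.0381), and Acly, the cytosolic ATP citrate lyase, at 204, 206, 209 and 209 CPM and 225, 221, 239 and 234 CPM (0.13 ± 0.04, adjusted p = 0.0488). D2hgdh was lower with age in WT (-0.31) and higher in V338Y (0.28), and the test of that difference did not pass (0.62 ± 0.18, adjusted p = 0.238).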

How the data were processed

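Strand-marked, single-end libraries were made from ribosome-depleted RNA of 16 mice. The authors deposited estimated counts per gene, without normalization, from RSEM per the study's methods; the values are whole numbers of at most 4 significant digits, and all 1495 values of 10000 or more end in 0. The submitters' processing notes name bcl2fastq 1.8.4, STAR 2.4.2a, featureCounts and GRCm38, while the methods name an older build; the identifiers were mapped by Ensembl ID (37607 of 39179 with a symbol), so gene positions are those of GENCODE M21. A gene was kept where 2 or more mice of either group had 10 counts or more. Pairs of groups were fitted with TMM normalization and tested with the robust quasi-likelihood test of edgeR 4.0.16 (R 4.3.3), with Benjamini-Hochberg adjustment over all genes kept, and the difference between the age effects as an interaction in all 16 libraries. CPM used TMM over all 16 libraries, and ratios a prior of 0.5 counts. The scripts were tested on simulated data. The 38 genes, the further lists and the pairs were chosen with earlier results of these data known. Values in every mouse are given for the 3 largest rises and the 3 largest falls called in each age comparison, for genes called between genotypes and for the 4 pairs whose ratio differed most with age; other pathway genes are named where called between genotypes or among the 2 largest rises or falls. Alternatives were RLE size factors, library size, DESeq2 1.42.0, the likelihood-ratio test, other filters, thinning, a single fit, a cerebellum covariate and leaving out mice. Replicates are separate mice.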

Additional observations from a re-analysis of the deposited data

Results flagged for a closer look

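In groups of 4, a mouse was marked where its gap to the nearest other mouse took up nearly the whole range of the group (Dixon's test at 95%), which chance does in about 1 of 20 groups. Of 152 levels (38 genes in 4 groups) 7 were marked, and of 88 ratios 3. In WT mice at 3 months, mouse 11 was lowest for Pdk1 (59.6 CPM, the others 64.1 to 64.8), for Mpc2 (62.3 CPM, the others 68.4 to 68.9) and for the log2 ratio of Me1 to Me3 (-1.05, the others -0.77 to -0.75). In V338Y mice at 3 months, mouse 16 was highest for Dld (109 CPM, the others 99.5 to 100.2). Mouse 14, whose summed cerebellum markers were within the 19-month range, was lowest for the log2 ratio of Pdp2 to Pdp1 (-4.74, the others -3.96 to -3.80). In WT mice at 19 months, mouse 12 was highest for Sdhc (72.6 CPM, the others 60.6 to 61.6) and Fh1 (64.1 CPM, the others 57.9 to 58.3), and mouse 15 lowest for the log2 ratio of Pdk1 to Pdk3 (0.84, the others 1.07 to 1.11). In V338Y mice at 19 months, mouse 19, with the highest muscle markers, was highest for Sdha (373 CPM, the others 359 to 361) and Pdhx (42.8 CPM, the others 39.4 to 39.7).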

How the results depend on the processing

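No paired analysis was possible because the groups set against each other share at most 1 mouse number, and mice of different ages are different animals. The 4 genes called between the genotypes at 19 months became 2 with the likelihood-ratio test. They became 0 with all 16 libraries in one fit and with libraries thinned to the smallest total. With the cerebellum covariate 0 were called as well. The mean log2 level of its markers was at most 1.71 in old WT mice and at least 1.73 in old V338Y mice, while their sums overlapped. On the log2 scale this covariate can hardly be told apart from genotype, so no conclusion is drawn from that fit. Leaving out single mice gave 0 to 4. It gave 0 without the WT mouse 15 or the V338Y mouse 19, and 2 without the WT mouse 13. Other filters and scalings gave 4 to 6, DESeq2 3 and leaving out the V338Y mice 17 and 18, chosen after seeing their choroid plexus markers, 3. Over 18 alternatives the log2 fold change of Mpc1 stayed at 0.21 to 0.26, of Got2 at 0.13 to 0.22, of Mdh1 at 0.12 to 0.20 and of Ogdhl at 0.12 to 0.18, with adjusted p from 0.0023 to 0.597. For age, 32 genes in WT and 33 in V338Y became 0 and 22 with the cerebellum covariate, and 27 in V338Y without mice 17 and 18. That covariate also turned the sign of Idh3g (0.33), Gls2 (0.36), Ogdhl (-0.28), Pcx (-0.51), Glud1 (-0.33) and Me3 (-0.40) in WT and of Pdk2 (0.0175) in V338Y. In WT it cannot be told apart from age, and in V338Y it can be mainly through mouse 14. Scaling by library size alone gave medians over all genes of -0.10 in WT and -0.09 in V338Y. The ratio tests gave 14 to 16 of 22 with age with no prior count, with thinned libraries and without single mice. The shallowest library, with 6181448 counts, limits the smallest differences that could be seen.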
